A study of Mus musculus with 3 samples.

Results

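The genes described here are 9 erythroid genes, taken by name from the deposited expression tables of a sorted bone marrow population, out of 11419 listed genes. They are the 4 adult globin genes Hbb-bs, Hbb-bt, Hba-a1 and Hba-a2, the 3 red cell membrane genes Epb42, Slc4a1 and Rhag, and the 2 transcription factor genes Klf1 and Gata1. All 9 were listed, and all 9 passed the filter of at least 10 reads over the libraries. The study sequenced mRNA of cells sorted from the tibiae and femurs of the inbred mouse strain C57BL/6. The gate took cells with CD11b, F4/80 and CD169 on their surface but without CX3CR1, and the labels name no treatment, no age and no gate on a red cell marker such as TER119. All 3 libraries (replicates 1, 2 and 3) belong to this 1 group, with no control population. Whether they came from separate mice is not stated, so p-values rest only on spread between libraries, which may be technical. In limma this variance is shared over genes, so a p-value does not measure the spread of 1 gene alone.

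The libraries held 5150020, 40149274 and 37604930 reads assigned to listed genes in replicates 1, 2 and 3, so replicate 1 was the shallowest. Levels are in CPM, reads of a gene per 1000000 assigned reads. The limit for a gene with a count of 0 was taken as 3 reads, which equals 0.583, 0.0747 and 0.0798 CPM in the same order. The cells carry the label macrophages. Of all 11123 genes tested, 58.8% were above and 28.3% below a fixed level of 10 CPM (limma, adjusted p under 0.05). Of 15 core macrophage genes, 6 were above and 7 below it. Adgre1, which encodes another surface marker of the gate, was above at 18.6, 26.5 and 21.4 CPM. Per kb of exon, Adgre1 fell below a level of 10 (log2 -0.50). Siglec1, which encodes the CD169 of the gate, was among those below 10 CPM, at 0.388, 3.66 and 4.57 CPM. The Siglec1 value of replicate 1 rested on 2 reads, under the limit of 3 reads. All 14 late neutrophil genes and all 8 primary granule genes were above 10 CPM.

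Erythroblasts mature in marrow on the surface of macrophages, in clusters called erythroblastic islands. GATA1 and KLF1 switch on the erythroid genes, the nucleus is expelled, and the reticulocyte that is left makes mostly haemoglobin from stored globin mRNA. Haemoglobin joins alpha and beta chains, while band 3, protein 4.2 and the Rh-associated glycoprotein build complexes that tie the membrane to its skeleton. In these bulk libraries fewer erythroid cells and less RNA per cell cannot be told apart. Nor can RNA within erythroid cells be told apart from erythroid RNA taken up by or stuck to the sorted cells.

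Globin transcripts were the most abundant of the 9 per kb of exon in every library, and all 4 were highest in replicate 1. As CPM, 3 of the 4 exceeded every non-globin gene of the 9 in each library, while Slc4a1 passed Hbb-bt in replicate 3. Hbb-bs, an adult beta globin gene, had 462, 244 and 255 CPM in replicates 1, 2 and 3. Hbb-bt, the other adult beta globin gene of this strain, had 104, 54.6 and 60.0 CPM. Hba-a1, an adult alpha globin gene, had 207, 127 and 76.3 CPM, and its near copy Hba-a2 had 144, 79.7 and 73.2. For all 4 genes replicate 1 was the highest library, standing clear of replicates 2 and 3. The 4 globins together took 0.0917% of reads in replicate 1 (Wilson 95% interval 0.0892 to 0.0944), 0.0506% in replicate 2 (0.0499 to 0.0513) and 0.0465% in replicate 3 (0.0458 to 0.0472). Here and elsewhere an interval or a limit from counts covers counting error alone, because reads were not tagged by molecule as far as the labels say. Globin reads made up 94.1%, 88.8% and 85.6% of the CPM of the 9 genes in replicates 1, 2 and 3.

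The globin genes sit in 2 clusters. On GRCm38 chromosome 7, Hbb-bs (ENSMUSG00000052305) spans 103826534 to 103828096 and Hbb-bt (ENSMUSG00000073940) spans 103812524 to 103813996, both on the minus strand. On chromosome 11, Hba-a1 (ENSMUSG00000069919) spans 32283511 to 32284465 and Hba-a2 (ENSMUSG00000069917) spans 32296489 to 32297298, both on the plus strand. All are protein-coding, and no exonic base of any of the 9 genes overlaps an exon of another annotated gene. The copies share much of their sequence: 84.6% of the 75-base stretches of Hba-a2 transcripts also occur in Hba-a1, and 51.5% of those of Hbb-bs also occur in Hbb-bt. For Hba-a1 and Hbb-bt these shares were 67.9% and 56.6%. The division of reads within each pair is therefore uncertain. Whether reads that fit both copies were counted is not known here, so the sums over pairs may lack such reads too. Within the beta pair, Hbb-bs exceeded Hbb-bt per kb of exon by 4.07-fold, 4.10-fold and 3.89-fold in replicates 1, 2 and 3. Within the alpha pair the order changed, with Hba-a1 over Hba-a2 at 1.18, 1.31 and 0.856 per kb.

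The stretches before the starts of 3 globin genes are shown because all 4 globins were highest in the same library and are known targets of the transcription factors measured here. They are the 250 bases before the RefSeq start (GRCm38.p6), 5′ to 3′ on the strand of the gene, at chr7:103827929-103828178 (minus strand) for Hbb-bs, chr7:103813924-103814173 (minus strand) for Hbb-bt and chr11:32283422-32283671 (plus strand) for Hba-a1. The gene spans given above are from GENCODE, whose starts differ from these, so each window shown overlaps the span of its gene. Capitals mark letters that match any of 5 motifs on either strand. The GATA motif was searched as TGATAA and in a second form as AGATAA, the CACCC box read by KLF1 as CCNCNCCC, the CCAAT box by its own letters and the TATA box as TATAA. In Hbb-bt a pair of CCAAT matches on opposite strands adjoin.
Hbb-bs: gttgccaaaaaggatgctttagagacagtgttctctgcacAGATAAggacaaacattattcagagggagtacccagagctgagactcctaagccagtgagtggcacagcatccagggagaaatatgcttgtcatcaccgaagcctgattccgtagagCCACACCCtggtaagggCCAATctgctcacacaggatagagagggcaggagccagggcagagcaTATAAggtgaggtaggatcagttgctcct
Hbb-bt: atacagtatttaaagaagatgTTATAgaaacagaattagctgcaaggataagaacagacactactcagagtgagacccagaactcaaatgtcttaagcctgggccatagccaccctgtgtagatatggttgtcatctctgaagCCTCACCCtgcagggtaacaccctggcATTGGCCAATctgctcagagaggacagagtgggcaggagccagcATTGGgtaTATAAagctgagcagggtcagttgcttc
Hba-a1: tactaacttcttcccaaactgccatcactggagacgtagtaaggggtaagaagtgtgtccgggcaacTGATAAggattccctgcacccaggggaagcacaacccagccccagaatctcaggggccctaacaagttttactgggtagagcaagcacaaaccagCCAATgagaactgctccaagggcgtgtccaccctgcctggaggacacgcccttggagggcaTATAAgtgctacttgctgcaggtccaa
The window of Hba-a2 shares an unbroken run of 247 bases with that of Hba-a1 and is not shown. A promoter was matched for 8 of the 9 genes. Among those 8, TGATAA occurred in 4, against 8.16% of 27025 gene promoters of the same length. AGATAA occurred in 2 (10.3% of promoters), CCNCNCCC in 3 (45.6%), CCAAT in 6 (34.5%) and TATAA in 5 (23.5%). In Klf1 the TGATAA match lay 80 to 75 bases before the start on the opposite strand, and in Rhag 31 to 26 bases before it, also on the opposite strand. These matches describe letters and are not evidence of binding.

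Of the membrane genes, Slc4a1 stood far above the others. Slc4a1 (chromosome 11, 102348824 to 102366203, minus strand), which encodes band 3, the chloride and bicarbonate exchanger of red cells, had 50.7, 49.3 and 71.5 CPM in replicates 1, 2 and 3. Its highest library was replicate 3, not the replicate 1 of the globins. Epb42 (chromosome 2, 121017891 to 121037072, minus strand), the gene of protein 4.2, which links band 3 to ankyrin, had 2.72, 3.36 and 1.81 CPM. Rhag (chromosome 17, 40811126 to 40840754, plus strand), the gene of the Rh-associated glycoprotein, had 1.55, 3.11 and 0.505 CPM. Both were highest in replicate 2 and lowest in replicate 3. The values of replicate 1 rested on 14 reads of Epb42 and 8 of Rhag. Replicates 1 and 2 were not separated at this depth, since the fold of replicate 1 over 2 was 0.808 for Epb42 (95% counting interval 0.430 to 1.40) and 0.499 for Rhag (0.211 to 1.01). Slc4a1 supplied 92.2%, 88.4% and 96.9% of the CPM of the 3 membrane genes.

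Both transcription factor genes were low. Klf1 (chromosome 8, 84901928 to 84905291, plus strand), the gene of the zinc finger activator of adult beta globin, had 2.33, 3.61 and 1.52 CPM, from 12, 145 and 57 reads. Gata1 (chromosome X, 7959260 to 7978071, minus strand), a master regulator of erythroid, megakaryocytic, eosinophil and mast cell genes, had 0, 4.71 and 3.06 CPM, from 0, 189 and 115 reads. The limit that a count of 0 allows in replicate 1, 0.583 CPM, lies below the Gata1 level of either other library. Gata1 was thus lowest in the library with the highest globin levels. Klf1, like Epb42 and Rhag, was highest in replicate 2, and its fold of replicate 1 over 2 was 0.645 (95% counting interval 0.326 to 1.16).

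**Figure D1:**
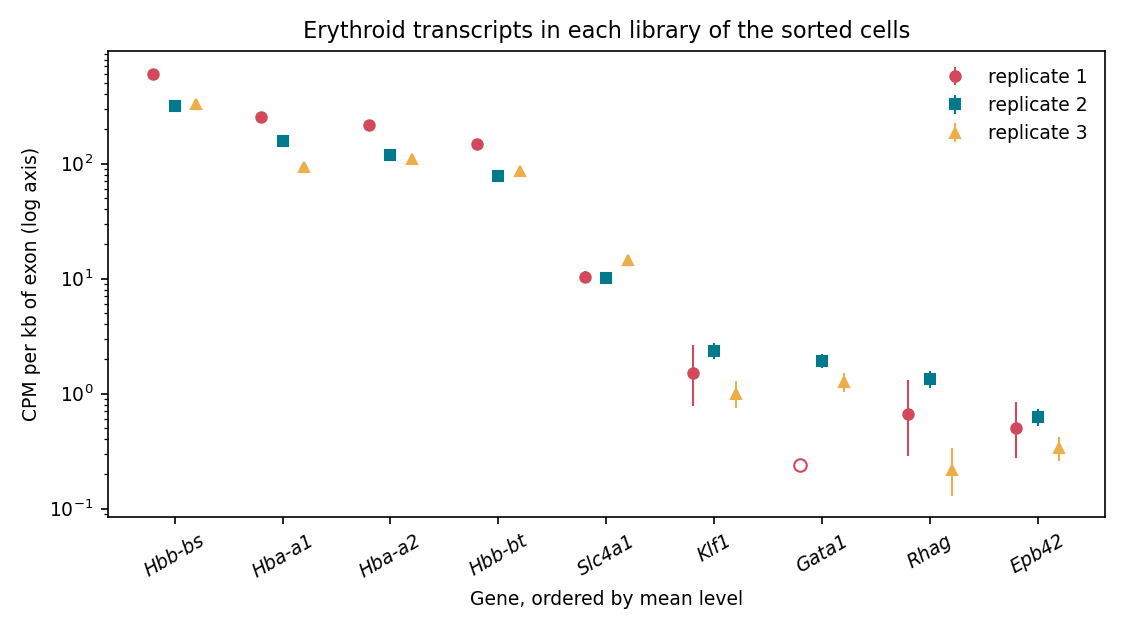
Level of each of the 9 genes in CPM per kb of exon (log axis) in replicates 1, 2 and 3, with bars for the exact Poisson 95% interval and an open symbol for the limit that a count of 0 allows (Gata1, replicate 1). The 4 globins lie at the top in every library, Slc4a1 lies between, and Klf1, Gata1, Rhag and Epb42 lie lowest.

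Set against a fixed level of 10 CPM, 5 of the 9 genes were above and 4 below. Beside the 58.8% above and 28.3% below of all genes tested (limma, adjusted p under 0.05), the share of the 9 above 10 CPM was near that of genes in general. Above were the 4 globins and Slc4a1. Hbb-bs, at 321 ± 123 CPM (SD, n = 3), was 4.81 over 10 CPM on the log2(CPM + 1) scale (SE 0.14, limma adjusted p = 5.08e-19). The same differences were 3.53 for Hba-a1, 3.12 for Hba-a2, 2.69 for Hbb-bt and 2.38 for Slc4a1, with limma adjusted p of 8.95e-15, 1.14e-14, 2.47e-13 and 5.80e-13. Below were Rhag at 1.72 ± 1.31 CPM (log2 -2.13, SE 0.34, limma adjusted p = 4.66e-06), Gata1 at 2.59 ± 2.39 (log2 -1.95, limma adjusted p = 7.20e-05), Klf1 at 2.49 ± 1.06 (log2 -1.70, limma adjusted p = 1.96e-05) and Epb42 at 2.63 ± 0.781 (log2 -1.62, limma adjusted p = 2.49e-05). Without replicate 1 the log2 difference of Gata1 was -1.19, and without replicate 2 the mean of Rhag was 1.03 CPM, both still below 10 CPM. On CPM per kb of exon against a level of 10, where 26% of genes were above and 62.8% below, the call of Slc4a1 was lost (log2 0.19, limma adjusted p = 0.228). The calls of all 9 were kept on recovered reads in edgeR (59.9% of genes above, 25.1% below) and DESeq2 (59% and 26.4%). They were also kept without replicate 1 (59% above, 27.8% below), 2 (57.6% and 23.1%) or 3 (58.2% and 27%), with TMM scaling (58.8% and 28.2%), a pseudocount of 0.1 (58.9% and 28.2%) or no filter (55.5% and 28%). The same held at levels of 5 CPM (69.3% above, 16.8% below) and 20 CPM (44.3% and 42.2%).

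Per kb of exon, the order of mean levels was Hbb-bs (417 ± 160 CPM per kb), Hba-a1 (169 ± 81.2), Hba-a2 (149 ± 58.9), Hbb-bt (104 ± 38.5), Slc4a1 (11.7 ± 2.54), Klf1 (1.62 ± 0.691), Gata1 (1.06 ± 0.980), Rhag (0.737 ± 0.561) and Epb42 (0.485 ± 0.144; SD, n = 3). The steps from Hbb-bs to Hba-a1, from Hbb-bt to Slc4a1 and from Slc4a1 to Klf1 separated libraries without overlap. All other neighbours overlapped in range. Within the overlaps, Hbb-bt was the lowest globin in every library, and Klf1 exceeded Rhag in every library and Epb42 without overlap. Hba-a1 and Hba-a2 changed places between libraries, as did Gata1 with its neighbours. Over all listed genes the median was 19.7 CPM. In the ranking of mean CPM over listed genes, Hbb-bs stood at percentile 96.5, Slc4a1 at 74.5 and Rhag at 12.5.

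Globin mRNA was then compared with the mRNA of membrane and transcription factor genes inside each library, where depth is shared. The summed globin level per kb exceeded that of the 3 membrane genes by 106-fold in replicate 1, 55.9-fold in replicate 2 and 41.0-fold in replicate 3. The mean log2 ratio was 5.96 ± 0.70 (SD, n = 3), positive in 3 of 3 libraries, with a two-sided p of 0.25 by exact sign-flip permutation, the lowest value possible with 3 libraries. Without division by length the ratio was 9.84-fold. Slc4a1 set this ratio. Against Epb42 and Rhag alone the globins were 1047-fold, 344-fold and 1130-fold higher (mean log2 9.53 ± 0.96), an alternative chosen after the values were seen.

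Against Klf1 and Gata1 the globins were 802-fold, 157-fold and 277-fold higher per kb in replicates 1, 2 and 3 (mean log2 8.35 ± 1.20, exact sign-flip permutation p = 0.25, positive in 3 of 3). Without replicate 1, where Gata1 had no read, the mean log2 ratio was 7.70. Against Klf1 alone the folds were 802, 285 and 627. In replicate 2, the library with most Klf1, Gata1, Epb42 and Rhag, the globin ratio to Klf1 with Gata1 and that to Epb42 with Rhag were both lowest.

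The membrane genes exceeded the transcription factor genes by a mean log2 ratio of 2.39 ± 0.78 per kb (exact sign-flip permutation p = 0.25), positive in 3 of 3 libraries. This direction rested on Slc4a1: Epb42 and Rhag alone gave a mean log2 ratio of -1.18. Slc4a1 itself exceeded Epb42 and Rhag together by 8.89-fold, 5.16-fold and 26.6-fold per kb (mean log2 3.42 ± 1.20, and 2.76 without replicate 3). The spread of this ratio was wider than that of Hbb-bs over Hbb-bt, whose mean log2 ratio was 2.01 ± 0.040. Counting error differs between these 2 ratios. Epb42 and Rhag had 14 and 8 reads in replicate 1 and 68 and 19 in replicate 3, against 535 and 2256 reads of Hbb-bt. Beta over alpha globin was 1.59-fold, 1.43-fold and 2.05-fold per kb (mean log2 0.74 ± 0.27, exact sign-flip permutation p = 0.25). If reads that fit both copies of a pair were not counted, these folds and the other globin ratios would be affected, which was not tested.

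**Figure D2:**
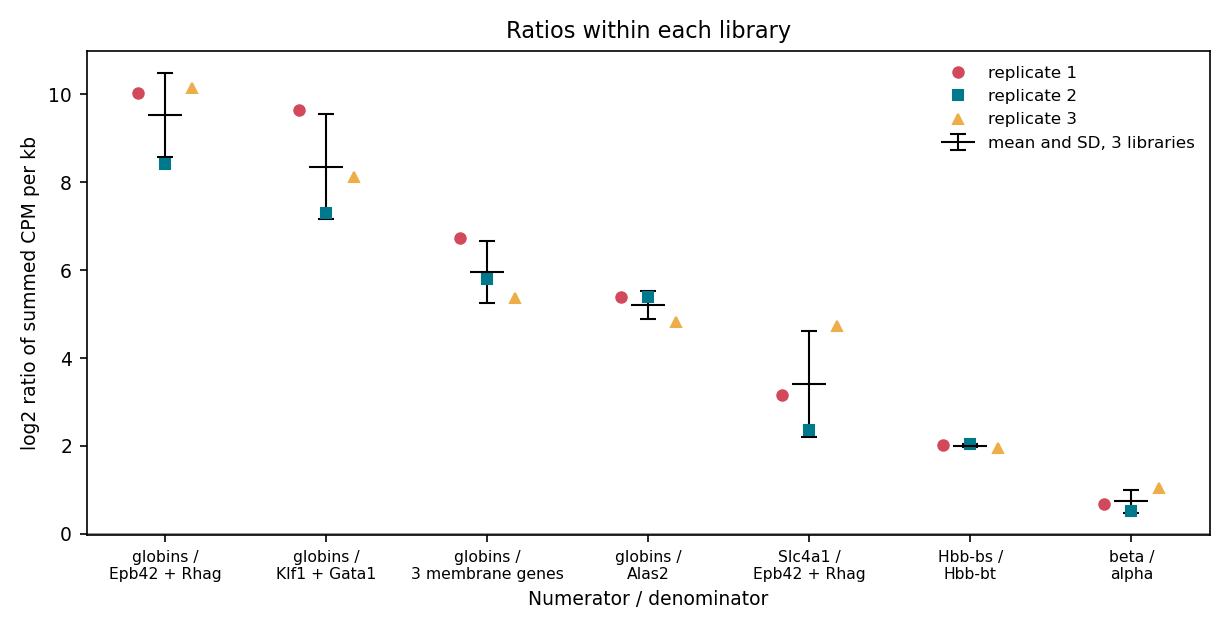
Log2 ratio of summed CPM per kb of exon within each library (symbols), with the mean and SD of the 3 libraries (black). The mean ratio of globins to Epb42 with Rhag is the highest (9.53), and that of Hbb-bs to Hbb-bt varies least (SD 0.040).

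Between libraries the 9 genes did not share 1 pattern. The globins were highest in replicate 1, at 1.85 (Hbb-bs), 1.81 (Hbb-bt), 2.04 (Hba-a1) and 1.89 (Hba-a2) times the mean of replicates 2 and 3. Over 7283 genes averaging 10 CPM or more, with reads in every library, this ratio had a median of 0.932, and 0.714% to 1.33% of genes were at or above the value of a globin. Hba-a1 also differed between replicates 2 and 3, by 1.67-fold (95% counting interval 1.59 to 1.74), while Hba-a2 did so by 1.09-fold (1.03 to 1.15). Slc4a1 was 1.45 times higher in replicate 3 than in replicate 2, its lowest library. Of the 7283 genes, 36.5% had a highest over lowest ratio at least as large as that of Slc4a1. Epb42, Rhag and Klf1 were higher in replicate 2 than in replicate 3, by 1.86-fold (95% counting interval 1.38 to 2.53), 6.16-fold (3.79 to 10.6) and 2.38-fold (1.74 to 3.30). These intervals compare single libraries and cover counting error only. Gata1, at 0, 4.71 and 3.06 CPM, was also highest in replicate 2. Unlike Epb42, Rhag and Klf1, it was lowest in replicate 1.

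Transcript length and depth moved with the globin pattern. Replicate 1 was the shallowest library, and of 343 genes in the same set whose longest coding transcript is under 1000 bases, as it is for each globin, 68.5% were highest in replicate 1, against 29.4% of the whole set. The median ratio of replicate 1 to the others in those short genes was 1.25. Between 3.21% and 5.25% of the short genes were at or above the ratio of a globin. The part of length or depth in the globin pattern was not tested.

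**Figure D3:**
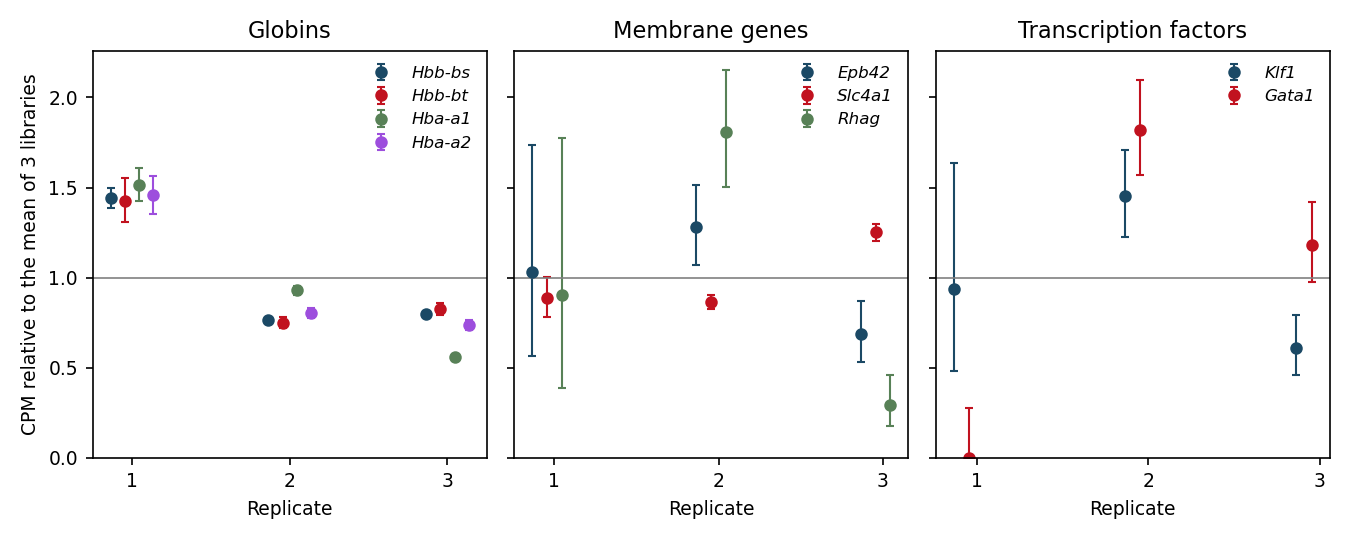
CPM of each gene divided by its mean over the 3 libraries, with exact Poisson 95% intervals, for globins, membrane genes and transcription factors. The globins are high in replicate 1, Slc4a1 is high in replicate 3, and Epb42, Rhag, Klf1 and Gata1 are high in replicate 2.

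Genes with profiles nearest to the globins were sought among 7278 other genes averaging 10 CPM or more, by Euclidean distance of centred log2(CPM + 1) over the 3 libraries. The nearest were Serhl, Pex7, Sac3d1, Erg28 and Maco1, at distances of 0.024 to 0.072. Pex7, the gene of a receptor for import into peroxisomes, had 25.4, 14.0 and 12.6 CPM. The globins themselves lay 0.034 (Hba-a2) to 0.42 (Hba-a1) from their own mean profile. Within 0.2 of the globin profile lay 49 genes. The mean profile of the membrane genes had Rpp21, Mcrs1, Polr2j, Vti1a and Rbm18 nearest (0.017 to 0.030), but Slc4a1 and Rhag lay 0.76 and 0.66 from it.

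Other erythroid genes, from 4 lists, gave 28 of 53 listed genes above 10 CPM and 15 below, with a median of 19.6 CPM against 19.7 over all listed genes. Of all listed genes 57.3% were above and 27.6% below, and of these 53 genes 52.8% were above and 28.3% below. Haem synthesis genes were mostly above, with 9 of 12 above and 1 below. Slc25a37, the mitochondrial iron importer mitoferrin 1, was at 79.9 ± 17.4 CPM, Tmem14c at 67.8 ± 9.11, Ppox, protoporphyrinogen oxidase, at 65.3 ± 5.55 and Alas2, the erythroid form of the first enzyme of the pathway, at 53.7 ± 16.2 (SD, n = 3). Uros, uroporphyrinogen III synthase, was below at 4.92 ± 0.418. Alas2 had 70.5, 38.2 and 52.5 CPM, highest in replicate 1 like the globins. The globins exceeded Alas2 by 41.6-fold, 42.2-fold and 28.5-fold per kb.

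The remaining membrane and skeleton genes were split, with 5 of 17 above and 8 below. Above were Epb41 (131 ± 25.1 CPM), the protein 4.1 gene, Mpp1 (124 ± 14.1), Stom, the stomatin gene (117 ± 6.38), and the glucose transporter gene Slc2a1 (27.1 ± 7.29), all of which are also active outside the erythroid lineage. Among those below was Tmod1, a tropomodulin gene (1.84 ± 1.20). Of the 17 genes, 11 were highest in replicate 3, as Slc4a1 was, and 3 in replicate 1, against 47.0% and 33.4% of all listed genes.

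Of the other transcription factor genes, 8 of 11 were above and 1 below. Nfe2 (465 ± 32.9 CPM), Ikzf1 (351 ± 65.8), Lyl1 (162 ± 17.3) and Zbtb7a (100.7 ± 15.2) led, and each is also active in other blood lineages. Tal1, the partner of GATA1 in erythroid complexes, was below at 2.14, 7.65 and 9.76 CPM (limma adjusted p = 0.0270), lowest in replicate 1 as Gata1 was. The call of Tal1 was lost in edgeR (adjusted p = 0.130) and DESeq2 (0.134) on recovered reads, and in limma with no filter on low genes (0.181) and without replicate 1 (0.485).

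In the list of other erythroid functions, 6 of 13 were above and 5 below. Bnip3l, which directs the removal of mitochondria in reticulocytes, was at 134 ± 15.6 CPM, Tfrc, the transferrin receptor gene, at 39.5 ± 7.05, Car2, carbonic anhydrase 2, at 31.3 ± 4.98 and Prdx2, peroxiredoxin 2, at 29.7 ± 11.0. Epor, the erythropoietin receptor gene, was below at 1.94, 0.872 and 1.65 CPM, and Cited4 at 1.26 ± 0.939. Of these 13 genes, 12 were highest in replicate 1, against 33.4% of all listed genes. In that library 6 of 12 haem synthesis genes and 4 of 11 transcription factor genes were highest. The leads differed in size: Bnip3l had 144, 116 and 142 CPM, while Prdx2 had 42.1, 25.8 and 21.2. Epor rested on 10 reads in replicate 1. The exception was Hemgn, at 4.66, 6.00 and 4.02 CPM, which the rule for named genes did not choose and which is given because of these values. Per kb of exon, where the share of all genes above a level of 10 was 26%, 5 of 12 haem synthesis genes, 6 of 11 transcription factor genes, 2 of 17 membrane and skeleton genes and 2 of 13 of the last list were above. The 6 embryonic and minor globin genes, and Gfi1b, Ahsp, Car1 and 5 more genes of these lists, had no value under their symbols and were not analysed here.

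**Figure D4:**
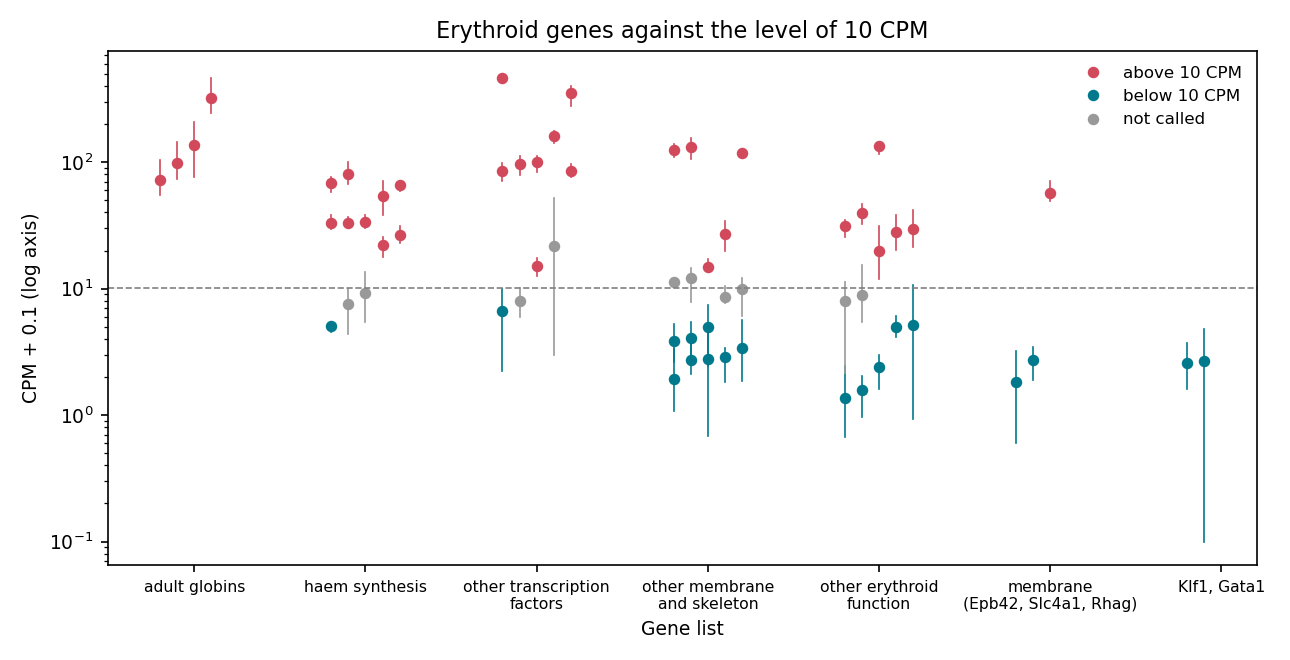
Mean CPM plus 0.1 (log axis) of each erythroid gene, with vertical lines from the lowest to the highest library and colour for the limma call against 10 CPM (dashed). The adult globins lie wholly above 10 CPM, haem synthesis genes mostly so, and Klf1, Gata1, Epb42 and Rhag below it.

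Marker genes of other cell types known to use GATA1 varied between libraries. The 10 eosinophil genes summed to 639, 1101 and 1511 CPM in replicates 1, 2 and 3, none was highest in replicate 1, and Prg2, the major basic protein gene, had 316, 494 and 722 CPM. Gata1 was lowest in replicate 1 too, but was higher in replicate 2 than in replicate 3. The 6 listed basophil and mast cell genes (of 10 in the list) summed to 1478, 735 and 810 CPM, and 5 were highest in replicate 1. There Prss34 had 596 CPM against 74.5 and 81.2, and Mcpt8 had 259 against 35.4 and 37.4. The exception was Hdc, which had 552, 609 and 675 CPM and made up most of the sums of replicates 2 and 3. Of 7 listed megakaryocyte genes (of 13 in the list), 1 was above and 5 below 10 CPM, and 5 were highest in replicate 1. Their sums of 154, 118 and 136 CPM came mostly from the integrin gene Itgb3 (81.9, 99.1 and 116 CPM), which was lowest in replicate 1. Itga2b, another integrin gene, which the rule for named genes did not choose, had 44.9, 7.32 and 7.31 CPM. Pf4, a defining platelet gene, had 3.11, 0 and 0 CPM. In lists of other cell types, replicate 1 was highest for 7 of 8 primary granule genes, 9 of 15 core macrophage genes and 4 of 14 late neutrophil genes. Of all listed genes, 33.4% were highest in replicate 1. The part of these cell types in the levels of Gata1 and of the globins was not tested.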

How the data were processed

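The authors deposited CPM for each gene and library, made per the submitters' processing notes with FastQC, STAR, featureCounts and edgeR; these notes name the builds mm10 and GRCh38 without their roles, and versions, annotation and strand setting are not given in the sources used here. Of 11463 entries per file, 44 repeated a gene under another Entrez identifier (Hbb-bs among them) and were dropped. The CPM of each library then summed to 1000000, and 100% of values were whole reads within 0.01 reads.

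limma 3.58.1 (R 4.3.3) tested log2(CPM + 1), with a pseudocount of 1 and trended moderation, against 10 CPM, two-sided, for 11123 genes with at least 10 reads. Benjamini-Hochberg adjustment ran over all of them, with a call at 0.05. A log2 difference understates the change of low genes. edgeR 4.0.16 and DESeq2 1.42.0 on recovered reads were alternatives, since the unit was CPM. As edgeR's test needs a second design term, its quasi-likelihood F was formed against a mean fixed at 10 CPM (6660 genes above, 2787 below). Lengths and positions came from GENCODE (GRCm38), promoters from RefSeq. Named genes were the 9 genes, up to 4 highest above and 2 lowest below 10 CPM in each of 14 lists, and the 5 nearest profiles to globin and to membrane genes. Some named genes are not reported here. The genes and lists were chosen with earlier results of these data known.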

Additional observations from a re-analysis of the deposited data

How the results depend on the processing

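No paired analysis was possible because the labels give 1 group. In limma, edgeR and DESeq2, with a pseudocount of 0.1, without a filter, with TMM scaling, at 5 or 20 CPM and without any 1 replicate, all 9 genes kept their calls; per kb of exon Slc4a1 lost its own. Over all genes, 6539 were above and 3153 below 10 CPM; per kb these counts were 2894 and 6975, and at 5 CPM 1870 were below.

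The log2 ratio of globin to membrane genes was 3.30 without length, 4.96 without Hbb-bs and 9.53 without Slc4a1. That of globins to Klf1 and Gata1 was 7.07 without length and 6.30 as a mean of log2(CPM per kb + 1). Membrane over transcription factor genes was 3.77 without length, 0.52 as that mean and -1.18 without Slc4a1. Beta over alpha globin was 0.42 as that mean. Omissions of Slc4a1 or Gata1 were chosen after seeing the data.

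Per kb, the log2 differences of Epb41 (-0.27), Slc2a1 (-0.36), Tfrc (-0.59), Prdx2 (-0.085), Vcam1 (-0.26), Csf1r (-0.087) and Adgre1 (-0.50) turned negative. Tal1 turned positive at 5 CPM (0.14), and Cpa3 negative at 20 CPM (-0.31). Without 1 replicate Cpa3 ranged from -0.079 (without replicate 1) to 1.02 (without replicate 2), and the cause was not tested. The other changes of sign follow from the division by length or the level itself. Depth limits the low genes in replicate 1 most, where 10 CPM is 51.5 reads.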
